A study of Bos taurus with 9 samples.

Results

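Messenger RNA of bovine (Bos taurus) oocytes matured in vitro with iodoacetate was compared with that of oocytes matured without an added compound. Libraries were matched by the order of the numbers in their titles, so that iodoacetate library 10 was set with control library 22, 11 with 23 and 12 with 24. The comparison used 6 of the 9 libraries of the series, 3 per group, and the other 3 came from oocytes matured with dichloroacetate. Both groups were cumulus-oocyte complexes from follicles of 2 to 4 mm in slaughterhouse ovaries, matured for 24 h in the same medium in groups of 25. After removal of the cumulus cells, oocytes with a first polar body were pooled by 5 per library. The labels list iodoacetate at 0.1 to 5 µM and do not say which dose the sequenced oocytes received, nor do they give the age, breed or number of donor animals. They state no matching of libraries either. The match by title order is an assumption, and it was taken up after an earlier look at these same counts had shown that libraries at the same place in that order deviated together.

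Iodoacetate alkylates reactive thiols and is known as an inhibitor of glyceraldehyde-3-phosphate dehydrogenase, a glycolytic enzyme upstream of pyruvate. The oocyte takes up pyruvate that its cumulus cells make from glucose, and oxidises it in its mitochondria. A fully grown oocyte is largely silent in transcription during maturation, and its stored transcripts are then regulated mostly through the length of the poly(A) tail, translation and decay. The cDNA kit used here primes on poly(A), so a count reads the amount of a transcript and how well its tail is captured together. Counts are relative to the library, and a change in 1 transcript cannot be told apart from an opposite change in the rest of the RNA of the pool.

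The 6 libraries held 8109768 to 9834849 counts over genes, and 15241 to 15351 genes had at least 1 count. Every iodoacetate library had fewer detected genes than every control library, 15288 ± 41.4 against 15335 ± 14.8 (SD, n = 3 each; two-sided exact permutation p = 0.1, the smallest that 3 against 3 can give). Adjusted over the library measures tested (Benjamini-Hochberg), this permutation p was 0.4. An exact sign-flip test over the title-order pairs gave p = 0.25, the smallest that 3 pairs can give. With each library thinned to the smallest total the means were 15213 ± 24.0 and 15215 ± 29.5 (two-sided exact permutation p = 0.9). After a filter on low counts, 11601 of the 15978 genes of the table were tested. The table lists genes under Ensembl identifiers without names, and 0 of them matched the gene table used here, so the genes are described by their levels and only 4 are given by identifier. The oocyte identity of the pools was not checked against marker genes for the same reason.

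The correlations that prompted the match are given here as a description, not as a test of it. Over the 11601 genes, the deviations of log2 CPM (counts scaled to a common library size) from the group means correlated with r = 0.19 between libraries 10 and 22, 0.45 between 11 and 23, and 0.16 between 12 and 24. The 6 other combinations of an iodoacetate and a control library had r from -0.38 to 0.23. Library 12 correlated more highly with control 22 (r = 0.23) than with its own match 24, whereas libraries 10 and 11 correlated best with theirs. Deviations cancel within a group, so these 9 values are not independent of each other, and they describe genes within libraries that share an amplification method.

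**Figure D1:**
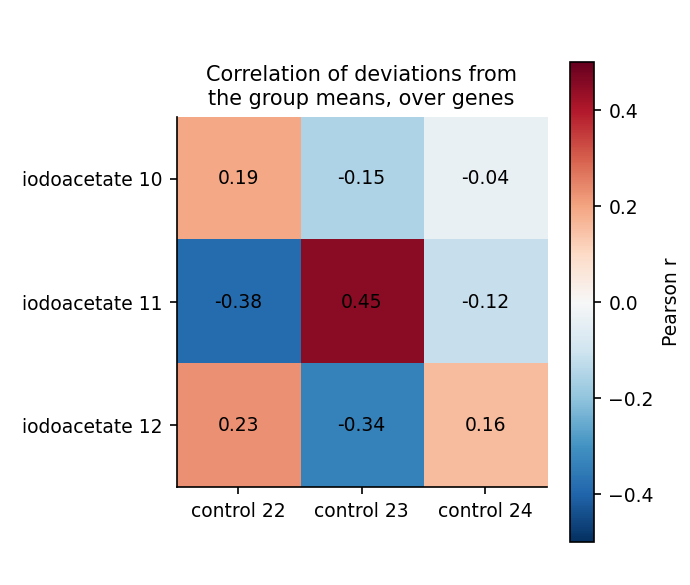
Pearson correlation over 11601 genes of each library's deviation from its group mean in log2 CPM, for every combination of an iodoacetate library (rows, by title number) and a control library (columns). The title-order matches lie on the diagonal, at 0.19, 0.45 and 0.16.

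Place in the title order took a larger share of the variation between libraries than treatment did, but it has more degrees of freedom. The match was prompted by these same counts, so the shares and the term for place describe them and do not test it. Of the sum of squares of log2 CPM around each gene's mean, 49.6% lay between the 3 places, 22.7% between treatments and 27.7% in the remainder. Per degree of freedom, the mean squares per gene were 0.262 for place, 0.239 for treatment and 0.147 for the remainder. Of 3 equal classes of genes by read abundance, the highest had the smallest remainder, 20.1% of its variation, against 31.9% in the lowest. In the blocked fit, the term for place passed at an adjusted p under 0.05 (edgeR) for 360 genes, or 3.1% of those tested.

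With the block, 36 genes were higher and 35 were lower after maturation with iodoacetate. These 71 genes made up 0.612% of the 11601 tested (0.31% higher and 0.302% lower), in edgeR's quasi-likelihood test at a Benjamini-Hochberg adjusted p under 0.05. The block was prompted by these same counts. The blocked adjusted p-values make no allowance for that choice, so the stated false discovery rate may not hold. Without the block the same test on the same libraries called 0 genes (0%), with 849 at an unadjusted p under 0.05 and a smallest adjusted p of 0.544. The blocked calls themselves ended without robust estimation of the spread (0 genes, 1649 at an unadjusted p under 0.05, smallest adjusted p = 0.0661) and with the block as a random effect in limma with voom weights (0 genes, 1599 at an unadjusted p under 0.05, smallest adjusted p = 0.0560), and 3 genes were called without libraries 12 and 24.

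The gene with the smallest p-value was ENSBTAG00000050012, which fell. Its expression was 231, 190 and 198 CPM in iodoacetate libraries 10, 11 and 12, and 455, 381 and 485 CPM in control libraries 22, 23 and 24. The highest treated library was well below the lowest control library, and the group means were 206 ± 21.9 and 440 ± 53.2 CPM (SD, n = 3 each). The log2 ratio within the title-order pairs was -0.98, -1.01 and -1.29. The blocked log2 fold change was -1.09 with a standard error of 0.16 and an adjusted p of 0.0165 in edgeR, and without the block it was -1.10 with a standard error of 0.19 and an adjusted p of 0.544.

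ENSBTAG00000005946 also fell, and its groups overlapped. It was named for a small blocked p and the same direction in all pairs. Its order within pairs follows from that choice, which also favours a smaller blocked error. It stood at 86.6, 90.4 and 156 CPM with iodoacetate and at 155, 215 and 292 CPM in the control, in title order. Iodoacetate library 12 lay just above control library 22, at 156.2 against 154.5 CPM, yet each treated library was lower than its own match. Libraries 12 and 24 were the highest of their groups, and the log2 ratio within pairs was -0.83, -1.24 and -0.90. The blocked log2 fold change was -0.996 with a standard error of 0.17 (adjusted p = 0.0284 in edgeR). The unblocked standard error was 0.28 and its p before adjustment was 0.00432 in edgeR.

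Of the genes that rose, ENSBTAG00000043564 had the smallest p-value. Iodoacetate libraries 10, 11 and 12 had 555, 687 and 839 CPM, and control libraries 22, 23 and 24 had 343, 250 and 425 CPM. The groups did not overlap, and the highest library of each group was the last in title order. The ratio within pairs was uneven, at 0.69, 1.46 and 0.98 on the log2 scale. The blocked log2 fold change was 1.04 with a standard error of 0.17 (adjusted p = 0.0284 in edgeR), against a standard error of 0.23 without the block.

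ENSBTAG00000023697 rose as well, from 112, 105 and 90.2 CPM in the control to 263, 156 and 212 CPM with iodoacetate, in title order. The control libraries were close together, with 102 ± 10.9 CPM, and the treated libraries were spread, with 210 ± 53.6 CPM (SD, n = 3 each). The groups did not overlap. Libraries 11 and 23 differed less than the other pairs, with a log2 ratio of 0.57 against 1.24 and 1.23. The blocked log2 fold change was 1.01 with a standard error of 0.18 (adjusted p = 0.0284 in edgeR), and the unblocked standard error was 0.23.

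**Figure D2:**
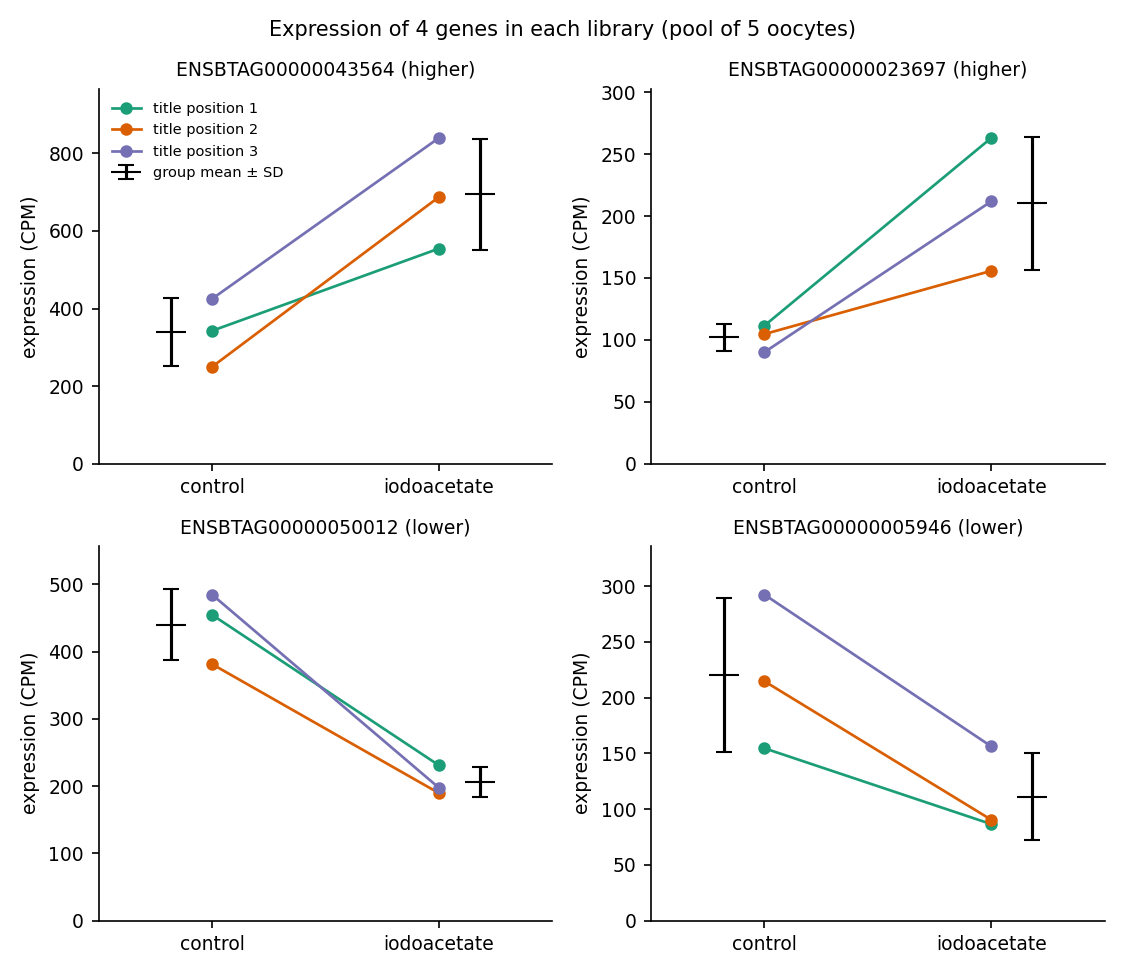
Expression in CPM (vertical axes from 0) of 2 genes called higher and 2 called lower in the blocked edgeR fit, by library, with lines joining libraries at the same place in title order and black bars for the group mean ± SD (n = 3). In every panel all 3 lines run in 1 direction, and only ENSBTAG00000005946 has overlapping groups.

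The called genes had estimated changes of about 2-fold in the libraries on which they were called, a choice that favours large estimates. Those that rose had a median log2 fold change of 0.95 and reached 1.51, and those that fell had a median of -0.91 and reached -2.59. Over all genes tested the median was 0.00, and 95% of absolute log2 fold changes lay under 0.85. An estimated change over 2-fold was found for 342 genes, or 2.95% of those tested, and 28 of them were called. The remaining 43 called genes changed by less than 2-fold, down to 0.70 on the log2 scale. The genes that rose took 1.65% of normalized counts with iodoacetate and 0.890% in the control, and those that fell took 0.407% and 0.737%. Genes called anew without a pair had smaller median changes, in the called direction, in the pair left out, as given below.

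Most called genes were of high read abundance, a measure that was not corrected for gene length. When the genes tested were divided into 3 equal classes of 3867 by mean log2 CPM, the highest class, with a median of 101 CPM, held 27 genes that rose and 28 that fell, or 1.42% of its genes. The middle class held 7 and 2, or 0.233%, and the lowest class 2 and 5, or 0.181%. The lowest class had a median of 2.52 CPM. Precision differed in the same order. The median standard error in the blocked fit was 0.18 in the highest class, 0.25 in the middle class and 0.41 in the lowest, so that 2-fold changes of scarce transcripts were mostly not detectable at this depth and number of pools. The most abundant called gene averaged 6635 CPM over the 6 libraries, and the scarcest 1.76 CPM.

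**Figure D3:**
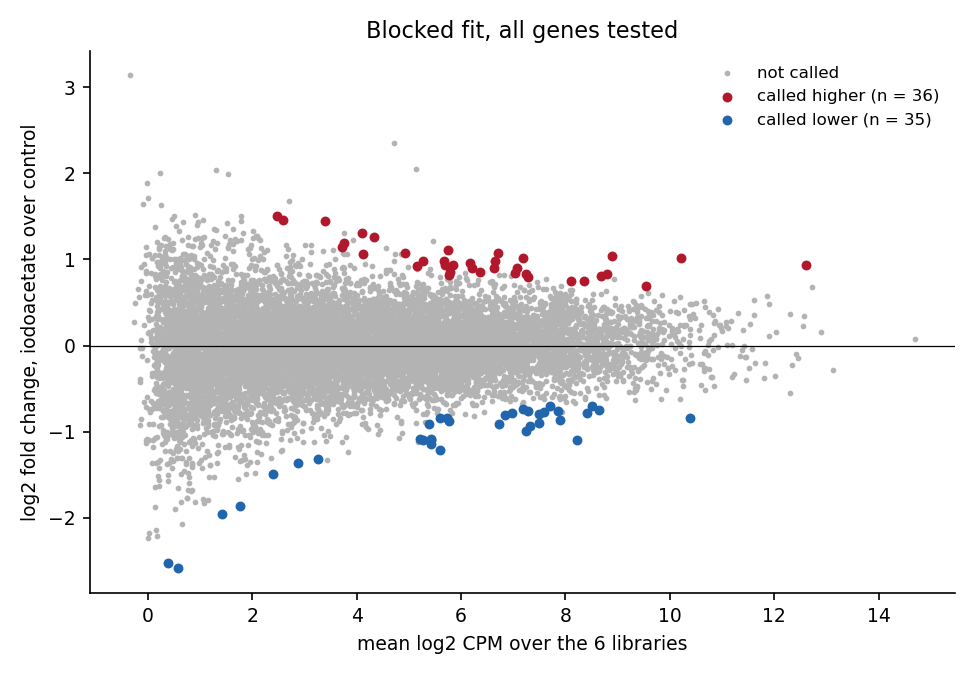
Log2 fold change of iodoacetate over control in the blocked edgeR fit against mean log2 CPM over the 6 libraries, 1 point per gene tested (11601), with the 36 genes called higher in red and the 35 called lower in blue. The called genes below about 4 on the horizontal axis changed by more than 2-fold, whereas smaller changes were called among abundant genes.

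The median ratios of the called genes were similar in the 3 pairs, which calling genes on these pairs favours. Single genes could be uneven between pairs, as ENSBTAG00000043564 was. The 36 genes that rose had median log2 ratios of 0.91, 1.00 and 0.95 in pairs 10 and 22, 11 and 23, and 12 and 24, and the lowest ratio of any of them in any pair was 0.27. The 35 that fell had medians of -0.95, -0.80 and -1.07, and the ratio nearest to 0 was -0.38. All 71 therefore had 1 direction in all 3 pairs, which the test favours, since it was run on these pairs. Among all genes tested, 4207 had 1 direction in all 3 pairs, or 36.3%. The groups did not overlap for 59 of the 71 called genes, and for 12.8% of all genes tested.

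**Figure D4:**
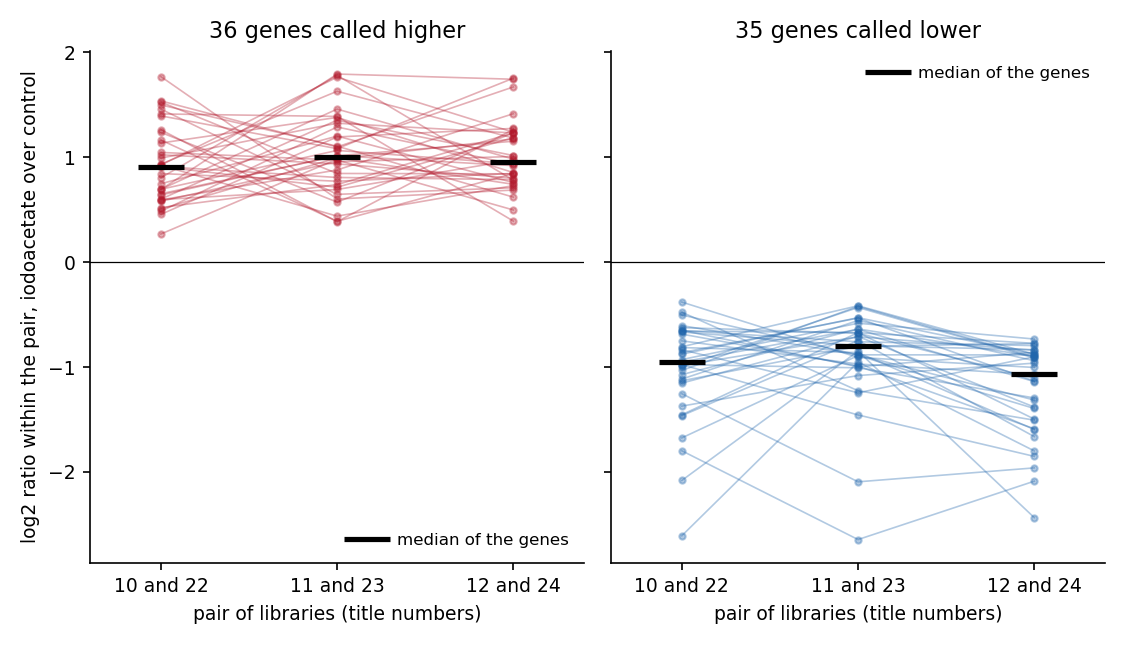
Log2 ratio of iodoacetate over control within each title-order pair, for the 36 genes called higher (left) and the 35 called lower (right) in the blocked edgeR fit, with 1 line per gene and a black bar at the median of the genes. All ratios lie on 1 side of 0, from 0.27 upward on the left and from -0.38 downward on the right, and these are the values on which the genes were called.

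The pairs did not contribute equally to the calls. Without libraries 12 and 24 the blocked edgeR fit called 2 genes higher and 1 lower of 11746 tested, and 0 of these were among the 71. The 4 genes given above then had adjusted p-values of 0.125 to 0.319 in edgeR, while their log2 fold changes stayed near those of the 3 pairs, at -1.01 (ENSBTAG00000050012), -1.06 (ENSBTAG00000005946), 1.06 (ENSBTAG00000043564) and 0.89 (ENSBTAG00000023697). These 4 genes were picked for 1 direction in all 3 pairs, and the fit reused the other libraries, so such nearness was favoured beforehand. Without libraries 10 and 22 the fit called 60 higher and 62 lower of 11797 tested, and 43 of these were among the 71. Without 11 and 23 it called 51 higher and 55 lower of 11691 tested, and 38 of these were. The log2 ratios of separate pairs, which have no library in common, correlated over genes with r = 0.08 for the pairs at places 1 and 2, 0.14 for 1 and 3, and 0.31 for 2 and 3. The spread of the ratios over genes was largest in the last pair, with an SD of 0.64 against 0.57 in each of the others. These correlations are across genes, which are not independent replicates.

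A pair left out of the fit gives ratios that the calls from the other pairs did not use, although all libraries had prompted the match. These calls were made anew and overlap those from all pairs only in part or not at all. The share over all genes covers every read abundance and was not matched to the called genes, so the shares are not like for like. Genes are not replicates, and no test is attached. Of 122 genes called from the other pairs, 99 (81.1%) had the same sign in the left-out libraries 10 and 22, where 55.1% of all genes did. Their median absolute log2 fold change was 1.09 in the fit, and their median log2 ratio in that direction was 0.40 in the left-out pair. With libraries 11 and 23 left out, 102 called genes that were also among the 11601 could be read, and 80 (78.4%) had the same sign, against 61.4% of all genes. Their median was 1.11 in the fit and 0.42 in the left-out pair. With libraries 12 and 24 left out, 2 called genes could be read and 0 had the same sign, against 62.5% of all genes. Their median absolute log2 fold change was 2.77 in the fit, and their median log2 ratio in that direction was -0.40 in the left-out pair. Over all genes this median ratio was 0.06, 0.13 and 0.17 with the pair at place 1, 2 and 3 left out.

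The block changed the errors of the fold changes far more than the fold changes. Every place holds a treated and a control library, so near-equal fold changes in the blocked and unblocked fits follow from this balanced layout. Blocked and unblocked log2 fold changes correlated with r = 0.992 over genes, and among the 71 called genes they differed by at most 0.14. The median standard error over all genes fell from 0.31 to 0.25 with the block and was smaller with it for 91.3% of genes. For the genes that rose the medians were 0.27 and 0.19, and for those that fell 0.25 and 0.18, a fall that their choice by the blocked p-value favours. The coefficient of biological variation common to all genes was 0.266 without and 0.198 with the block, although the residual degrees of freedom were 4 without and 2 with it. Errors that shrink when positively correlated libraries are matched follow from that correlation, so they are no separate sign that the libraries belong together.

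More genes had small p-values in the blocked fit over the whole table. At an unadjusted p under 0.05 in edgeR, 1677 genes (14.5%) were found with the block, 862 higher (7.43%) and 815 lower (7.03%), and 849 (7.32%) without it, 424 higher (3.65%) and 425 lower (3.66%). Of these, 840 were found by both fits, 837 by the blocked fit alone and 9 by the unblocked fit alone. Of the 71 called genes, 69 had an unadjusted p under 0.05 in the unblocked edgeR fit, and the largest was 0.0591. A change of more than 2-fold, up or down, lay outside the 95% confidence interval for 66.2% of genes with the block and 55.7% without, and in the most abundant class for 94.3% and 86.4%.

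**Figure D5:**
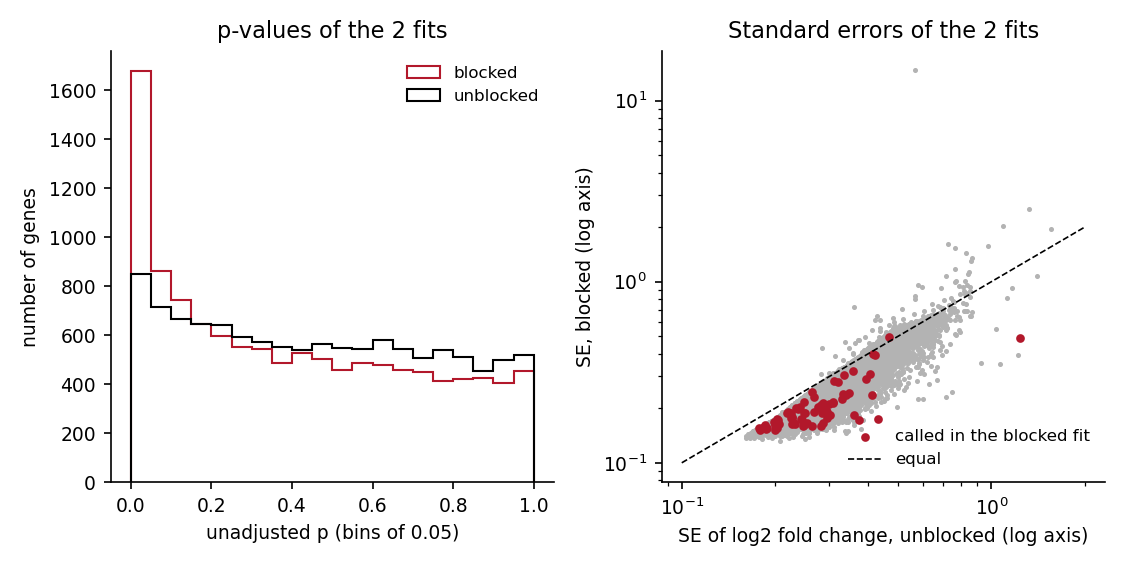
Left, number of genes by unadjusted p in bins of 0.05 for the blocked (red) and unblocked (black) edgeR fits of the same 6 libraries, with 1677 and 849 genes in the first bin. Right, standard error of the log2 fold change in the blocked against the unblocked fit on log axes, 1 point per gene, with called genes in red and a dashed line at equality; most points lie below the line, as the standard error was smaller with the block for 91.3% of genes.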

How the data were processed

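Per the labels' protocols, pools of oocytes were copied with the SMART-Seq HT kit, prepared with Nextera XT and sequenced as 100 bp paired-end reads. The authors deposited 1 table of raw read counts per Ensembl gene. The submitters' processing notes name Trim Galore, cutadapt, STAR, featureCounts and DESeq2. The sources used here do not give versions, genome build, annotation or counting mode, and reads of near-identical or overlapping genes may be divided between them in an unknown way. The kit does not mark strand and adds no molecular identifiers, so counts include amplification copies.

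Counts of the 6 libraries were analysed with edgeR 4.0.16 in R 4.3.3 (filterByExpr by group, TMM, robust quasi-likelihood F test, treatment plus a fixed block for place in title order), and p-values were adjusted over all 11601 genes tested. Log2 CPM used a prior count of 2. Standard errors were derived from the F statistic. The fits were tested on simulated data. Those data were drawn from the blocked fit with the block built in, so they cannot show whether the match by title order is right. Alternatives used DESeq2 1.42.0, limma 3.58.1, other scalings and filters, and left-out pairs. Places 1 to 3 come from the order of title numbers, not from any stated batch. The blocked fit is given first because the comparison was set out with this block. The correlations of matched libraries, all over 0.1, come from the counts that prompted the match and are no test of it, and an unmatched combination (12 and 22) also exceeded that level. Nothing says the pools came from separate maturation runs, and a p-value here reflects the spread of these libraries alone, which may be technical. No 2 libraries of a group agreed within sampling noise (the chi-square over genes was 17.4 to 52.8 times its degrees of freedom), and all were counted separately. This covers counting error only, which repeat amplifications of 1 pool would also exceed, and says nothing of whether the pools are separate biological samples.

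The comparison, the block and all gene lists were chosen with earlier results of these data known. Named genes were the 2 higher and 2 lower with the smallest p and 1 direction in all pairs. The 25 lists of pathway and marker genes were set out by symbol and were not analysed here, since 0 identifiers matched a symbol.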

Additional observations from a re-analysis of the deposited data

How the results depend on the processing

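Genes called higher and lower with iodoacetate (36 and 35 with the replicate block) were 0 and 0 in edgeR without the block, both with the 6 libraries and with all 9. They were 0 and 0 without robust estimation and 0 and 0 with the block as a random effect in limma voom. The medians of the prior degrees of freedom were 16.03 with and 11.8 without robust estimation, and 1649 genes without it and 1599 with the random block had an unadjusted p under 0.05. Larger or smaller counts came with the block in other settings, over differing numbers of genes. All 9 libraries gave 103 and 82 of 12016 genes tested. DESeq2 gave 125 and 87 of the 6989 genes with an adjusted p, which 8989 genes lacked. No filter on low counts gave 133 and 108 of 15965 tested. A filter of at least 5 CPM in 3 libraries gave 59 higher and 49 lower of 8191. An adjusted p under 0.1 gave 128 and 110 of 11601. Upper-quartile scaling gave 20 and 19 of 11601. Leaving out 1 pair gave 2 to 60 higher and 1 to 62 lower of 11691 to 11797 tested, the lowest without libraries 12 and 24. A single library left out of the blocked fit takes its match with it, so pairs were left out. RLE scaling, limma voom with a fixed block, and thinning to equal depth, which was chosen after seeing the data, called 59, 84 and 70 genes in all. They tested 11601, 11601 and 11405 genes, and 59, 71 and 66 of the called genes were among the 71. The 71 genes kept their direction under every alternative in which they were tested (all 71, except 68 with the strict filter and 70 without libraries 10 and 22). All 71 had 1 direction in every pair and the alternatives reused these libraries, so this outcome was largely fixed beforehand and is no separate support. The 4 named genes each passed under 11 of 16 alternatives. The looser threshold of 0.1 is 1 of these and is the main fit itself, so they could not fail it. They were also picked for the smallest p in that fit, and the alternatives reuse its libraries, so the tally is no independent support. Except where the settings above say otherwise, the cause of a change in count was not tested. At this depth and with 3 pools a group, precision was lowest for scarce transcripts.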

Other observations

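The libraries of oocytes matured with dichloroacetate were not part of the comparison. With all 9 libraries scaled together, the 2 named genes that fell with iodoacetate had means of 265 ± 68.5 CPM (ENSBTAG00000050012) and 128 ± 42.6 CPM (ENSBTAG00000005946) with dichloroacetate, where the control had 438 ± 53.4 and 219 ± 68.7 CPM (SD, n = 3 each). The 2 that rose had 550 ± 156 CPM (ENSBTAG00000043564) and 137 ± 51.9 CPM (ENSBTAG00000023697) with dichloroacetate, where the control had 338 ± 87.4 and 102 ± 10.9 CPM. For ENSBTAG00000023697 the dichloroacetate libraries were widely spread, at 187, 139 and 83.4 CPM, and the last of them lay below every control library. Over the 36 genes that rose with iodoacetate the median log2 difference from control was 0.95 with iodoacetate and 0.72 with dichloroacetate, and over the 35 that fell it was -0.90 and -0.75. Both comparisons share the same 3 control libraries and the genes were chosen on one of them, so no test is attached to these values.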
